A study of Mus musculus with 18 samples.

Results

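The comparison described here set a Wisp1-overexpressing line of 4T1 cells against its empty vector control while both grew on collagen type I, and it used 6 of the 18 libraries of the series. Its members were chosen by their labels alone: 3 libraries of the Wisp1 line and 3 of the empty vector (EV) line, all from dishes coated with collagen type I. 4T1 is an established mouse mammary carcinoma line. Both lines had been made by lentiviral transduction of 4T1 and puromycin selection, so the control cells also carry a vector and its resistance gene, and RNA was taken before the cultures reached confluence. Each line is a single selected population. The labels do not say whether the libraries of a group came from separate cultures or days, so p-values measure the spread between these libraries, which may be partly technical. Effects of Wisp1 and chance differences between the 2 selected populations cannot be told apart in this design. The same lines on uncoated plastic (3 libraries each) served for comparison and share no library with the collagen groups; the other 6 libraries of the series are parental cells and are not used below except where named.

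Wisp1, also called Ccn4, encodes a matricellular protein that cells secrete. It belongs to the CCN family, modular proteins that sit in the extracellular matrix, bind integrins and proteoglycans and regulate adhesion, survival and matrix turnover. Secreted proteins rich in disulfide bonds, as all CCN proteins are, enter the endoplasmic reticulum, where chaperones such as BiP and GRP94 hold the unfolded chain and protein disulfide isomerases form and reshuffle the bonds. Collagen type I, the coating of the dishes, is bound on epithelial cells chiefly by integrin alpha2 beta1 and by the discoidin domain receptors.

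The EV libraries on collagen held 54.41, 65.91 and 94.4 M gene counts and the Wisp1 libraries 81.03, 50.63 and 50.03 M. Pearson correlations of log2 CPM (counts scaled by library size, per M counts) between replicates ran from 0.994 to 0.9974, and replicate pairs differed by more than counting noise, so none looked like a library deposited more than once. In a principal component analysis of the 6 libraries, the first component (38% of the variance) placed the libraries numbered 1 of both lines at negative values and those numbered 2 and 3 at positive ones. The second component (22.8%) had all EV libraries above 0 and all Wisp1 libraries below it. Mammary epithelial markers summed to 3058 to 3425 CPM in EV and 3018 to 3896 CPM in Wisp1 libraries, and markers of other cell types were low. Of 10 fibroblast markers 4 could be tested and 3 (Lum, Thy1 and Dpt) were at 0 in all 6 libraries, with sums of 25.1 to 30.8 CPM in EV and 26.9 to 33.4 CPM in the Wisp1 line. The sums hide falls: of the 4 tested, 3 were lower in all 3 comparisons of same-numbered libraries (18.3% of all genes were) and 1 was higher. For 2 of them the groups were separate and lower in the Wisp1 line (4.27% of all genes). The median log2 change of the 4 was −0.74, and Col3a1, at few counts, is given below. Of 18 leukocyte markers 7 were tested and 7, among them Cd3e, Cd8a and Nkg7, were at 0. Of 9 endothelial markers 2 were tested and 0 were at 0, with sums of 47.2 to 50.5 against 48.4 to 52.7 CPM. Libraries with the same number deviated from their group means together (correlations of 0.47, 0.15 and 0.34). Between libraries of different number on collagen the correlations ran from −0.41 to 0.13, the highest, EV 3 with Wisp1 2, being close to that of the pair numbered 2. A pair of fits is therefore given: one with group means only, which is the main one, and one that also compares libraries of the same number as pairs. A gene is called where its adjusted p (edgeR quasi-likelihood test, Benjamini-Hochberg over 13953 genes) is under 0.05. Log2 changes are Wisp1 line minus EV, with SE, and n = 3 per group throughout.

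Wisp1 itself checks the labels. It stood at 14.2, 15.8 and 16 CPM in the EV libraries on collagen and at 1087, 1120 and 1057 CPM in the Wisp1 libraries. The groups were far apart and the spread within each was small, at a log2 change of 6.14 ± 0.23 (70.7-fold, adjusted p = 2.09e-06). Wisp1 took 0.106 to 0.112% of all gene counts in the Wisp1 line and 0.00145 to 0.00159% in EV. On plastic the EV level was higher and more spread, at 36.4, 45.6 and 70.2 CPM, and the Wisp1 line held 885, 891 and 1040 CPM. The fold on plastic was 18.9 in the fit with pairs, and the difference between the 2 substrates did not pass the test (adjusted p = 0.431, or 0.0783 with pairs). The plot of Wisp1 by library shows EV libraries lower on collagen than on plastic, and Wisp1 line libraries at similar levels on both. Counts per symbol do not separate vector transcripts from the endogenous gene.

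**Figure D1:**
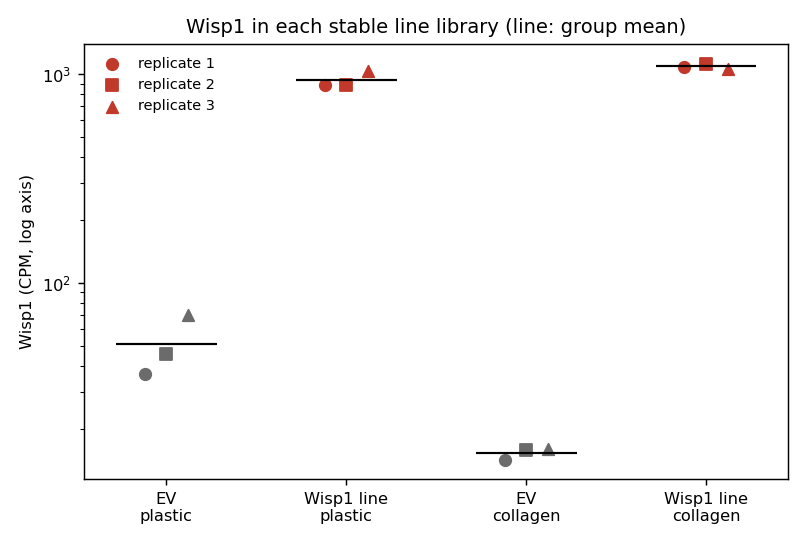
Wisp1 in CPM on a log axis in each of the 12 stable line libraries, with grey for EV, red for the Wisp1 line, marker shape for the replicate number and a black line for the mean of 3. EV libraries on collagen sit between 14.2 and 16 CPM, below the EV libraries on plastic, and all Wisp1 line libraries sit between 885 and 1120 CPM.

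Apart from Wisp1, 9 genes were called on collagen without pairs, 5 higher and 4 lower. The total of 10 is 0.0717% of the genes tested (0.043% higher, 0.0287% lower). With pairs all 10 were called again, in the same libraries, where 2.57% of all genes were called. The panel plot of these 9 genes shows that none of them had overlapping groups on collagen, where 9.49% of all genes had separate groups. The same libraries chose the genes, so this separation adds nothing to the calls.

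Among the higher genes, Ly9 encodes a homophilic receptor of the SLAM family best known from lymphocytes. It had 10.2, 11 and 10.7 CPM in EV and 16.8, 15.8 and 16.2 CPM in the Wisp1 line, a log2 change of 0.62 ± 0.072 (1.54-fold, adjusted p = 0.00313). On plastic the groups were also separate but by little, at 9.76 to 11.4 against 11.44 to 13.2 CPM. Of the 10 genes, Wisp1 and Ly9 were the 2 called in every one of 23 alternative settings. The summed leukocyte markers moved with Ly9, from 22.6 to 29.1 CPM in EV to 31.3 to 39.1 CPM in the Wisp1 line, and without Ly9 the ranges overlapped, at 11.9 to 18.1 against 14.5 to 23 CPM; their part in the result was not tested.

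Gpr116, an adhesion G protein-coupled receptor gene known for surfactant control in lung epithelium, had 6.56, 6.46 and 5.85 CPM in EV and 11.3, 10.2 and 8.95 CPM in the Wisp1 line. The libraries did not overlap, and the log2 change was 0.70 ± 0.10 (adjusted p = 0.0151). Xk, which encodes a membrane protein bound to the Kell blood group antigen, rose from 5.02, 4.66 and 4.78 to 7.51, 7.04 and 7.06 CPM (log2 change 0.58 ± 0.089, adjusted p = 0.0212). On plastic neither gene separated the lines, with Xk at 6.63 to 7.78 CPM in EV and 6.67 to 7.84 CPM in the Wisp1 line. Gpr116 lost its call when EV replicate 2 or 3 was left out (adjusted p = 0.0838 and 0.154), or Wisp1 replicate 1 or 2 (0.0525 and 0.0899). Xk lost it when any one of EV replicates 2 and 3 (0.166 and 0.157) or of Wisp1 replicates 1, 2 and 3 (0.0827, 0.0899 and 0.0583) was left out.

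The other higher genes were near the limit of detection. BC068157, for which no role is given here, had 1, 2 and 2 counts in the EV libraries and 18, 15 and 18 in the Wisp1 libraries, a depth-scaled ratio of 12 (95% counting interval 4.83 to 38.6, adjusted p = 0.00531). Plastic gave nearly the same, with 1, 2 and 2 counts against 9, 11 and 23. Chrdl1, which encodes a secreted antagonist of bone morphogenetic proteins, had 0, 3 and 0 counts in EV and 20, 13 and 11 in the Wisp1 line (ratio 17.3, interval 5.54 to 87, adjusted p = 0.0347). Both genes were separate between lines on plastic too, but at these counts the size of the change is loosely fixed. The BC068157 call ended without EV replicate 3 (adjusted p = 0.0855). Chrdl1 lost its call when EV replicate 1 or 3 (0.0961 and 0.268) or any of Wisp1 replicates 1, 2 and 3 (0.0827, 0.117 and 0.0615) was left out.

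The 4 lower genes were Spna1, Epb4.1l4a, Iqgap2 and Cadm2. Spna1, the erythroid alpha spectrin gene, had 19, 22 and 41 counts in EV and 3, 3 and 2 in the Wisp1 libraries, which is 8.7-fold lower (interval 4.21 to 20.8, adjusted p = 0.00313). Epb4.1l4a, a FERM domain gene of the band 4.1 family, fell from 11, 10.8 and 11.8 to 8.08, 7.75 and 7.28 CPM (log2 change −0.54 ± 0.078, adjusted p = 0.0146). On plastic Spna1 was lower again (7, 18 and 10 counts against 1, 1 and 3), whereas the Epb4.1l4a groups overlapped. Leaving out EV replicate 3 ended the Epb4.1l4a call (adjusted p = 0.135), as did leaving out Wisp1 replicate 2 (0.0899) or 3 (0.0611).

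Iqgap2, a calmodulin-binding scaffold protein gene, had 4.66, 4.36 and 4.61 CPM in EV and 2.56, 2.84 and 2.49 CPM in the Wisp1 line, 1.73-fold lower (adjusted p = 0.00454). The same order held on plastic, at 2.79 to 3.14 against 1.88 to 2.12 CPM. Cadm2, an immunoglobulin superfamily adhesion gene expressed mainly in neurons, had 22, 29 and 30 counts in EV and was at 0 throughout the Wisp1 line, so it was at least 7.43-fold lower against a floor of 3 counts per library (adjusted p = 0.00581). On plastic it had 3, 7 and 2 counts against 0, 0 and 0, too few to bound a fold. Without pairs 2 of these 10 genes were called on plastic, Wisp1 and BC068157, beside 0.0143% of all genes. With pairs on plastic, Wisp1, Spna1, Iqgap2, BC068157 and Chrdl1 were called, 5 of these 10 genes, beside 3.15% of all genes in that fit.

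**Figure D2:**
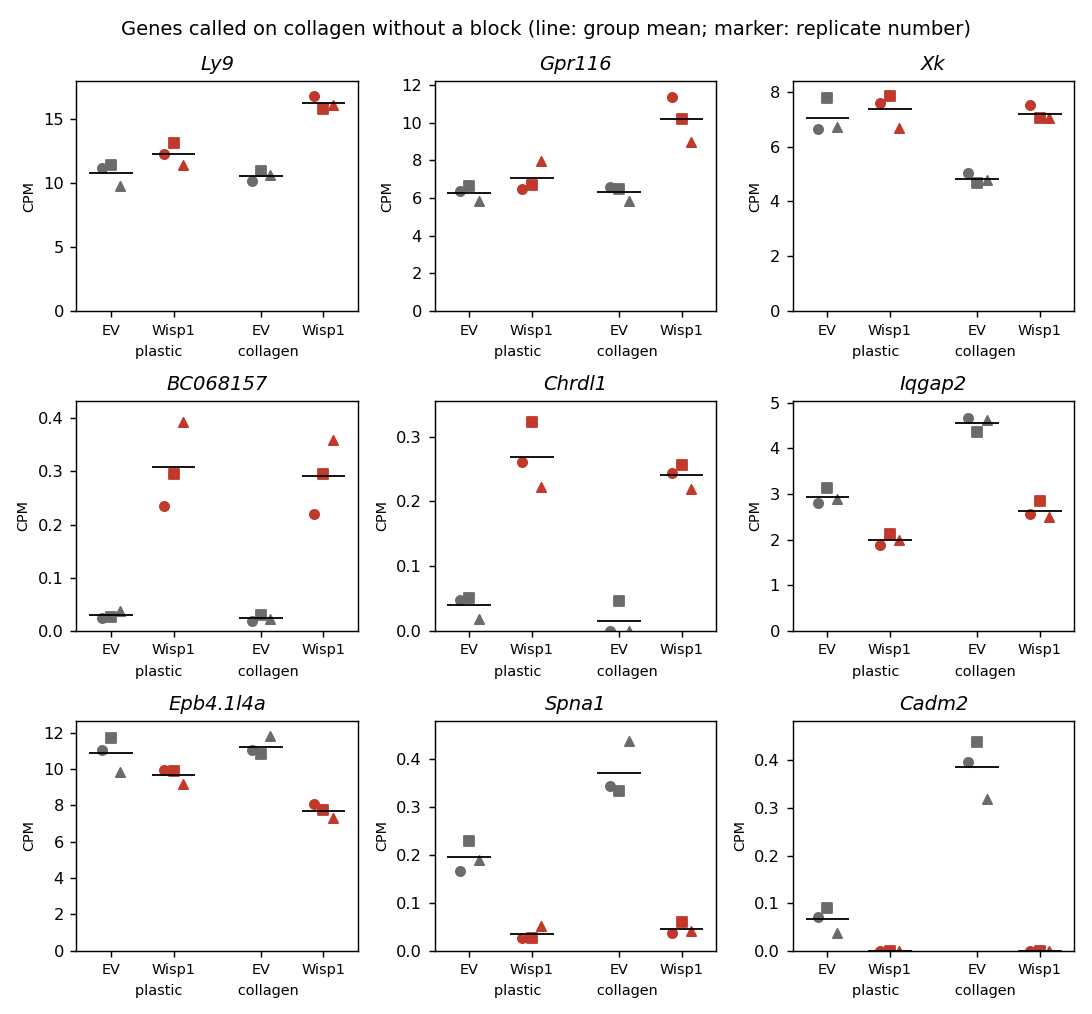
CPM of the 9 genes other than Wisp1 that were called on collagen without pairs, in EV (grey) and the Wisp1 line (red) on plastic and collagen. Marker shape gives the replicate number, the black line the mean of 3, and each axis starts at 0. On collagen the groups do not overlap in any panel; on plastic those of Gpr116, Xk and Epb4.1l4a do.

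With libraries of the same number compared as pairs, 358 genes were called on collagen, 2.57% of those tested, with 227 higher (1.63%) and 131 lower (0.939%). With pairs 2252 genes had an unadjusted p under 0.05, and without them 707, where 698 are expected. The called changes were small: the median fold was 1.14, 318 of the 358 were under 1.5-fold and 17 reached 2-fold. Of the 358 genes, 357 moved one way in 3 of 3 pairs and 204 had groups that did not overlap, against 9.49% of all genes tested (5.22% higher and 4.27% lower). Among all genes tested, 18.4% were higher and 18.3% lower in 3 of 3 pairs. The same pairs chose the 358 genes, so neither count is support for the calls. The count depended on each pair, at 82 without pair 1, 135 without pair 2 and 255 without pair 3, of which 75, 116 and 165 were among the 358. No label states what the replicate number marks, so the pairs rest on the correlations. Pairing was also chosen with earlier results of these data known. That fit leaves 4 residual degrees of freedom, and on simulated data it made more false calls than its nominal share, which bears on all calls with pairs below.

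The largest rises among genes at 5 CPM or more with separate groups were, after Wisp1, those of Akr1c13, Gpr116, Ly9, Xk, Vldlr, Anxa8 and Sp100. Akr1c13, an aldo-keto reductase gene, went from 4.39, 4.34 and 3.71 to 6.55, 6.15 and 7.51 CPM (log2 change with pairs 0.71 ± 0.12, adjusted p = 0.00905). Reads of Akr1c13 may be shared with near-identical genes of its cluster, which makes its value uncertain. Vldlr, the very low density lipoprotein receptor, rose from 4.1, 5.01 and 3.99 to 6.02, 6.31 and 6.28 CPM (0.51 ± 0.099, adjusted p = 0.00919).

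Anxa8, a calcium-dependent phospholipid-binding annexin, had 14.1, 16.2 and 17.1 CPM in EV and 19.6, 23.7 and 23.8 CPM in the Wisp1 line. Its pairs differed by 0.47, 0.55 and 0.48 (log2), and it had one of the smallest adjusted p-values of the fit with pairs (5.73e-06, log2 change 0.50 ± 0.046). On plastic Anxa8 was 21.4, 26.6 and 30.8 CPM in EV against 21.2, 26.4 and 28.4 CPM, and the difference between substrates passed the test with pairs (adjusted p = 0.000855). Sp100, a nuclear body protein gene induced by interferon, rose from 5.41 to 7.31 CPM in EV to 8.61 to 9.92 CPM (0.50 ± 0.072, adjusted p = 0.000616). The call with pairs ended for Akr1c13 without pair 1 (adjusted p = 0.0508), and for Vldlr without pair 1 (0.0899) or pair 3 (0.076).

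By the same limits of level and overlap, the largest falls were those of Mal2, Epb4.1l4a, Sox5, Sulf2, Gpm6b, Celsr1, Fam169a and Sipa1l2. Mal2, which serves transport to the apical membrane of polarized epithelia, went from 7.12, 6.54 and 5.69 to 4.77, 4.28 and 3.59 CPM (log2 change with pairs −0.61 ± 0.079, adjusted p = 0.000186). Sulf2, an extracellular sulfatase that trims heparan sulfate, fell from 16.5, 18.5 and 17.3 to 12.2, 14.4 and 12.8 CPM (−0.41 ± 0.054, adjusted p = 0.000207). Celsr1, a planar cell polarity cadherin, fell from 13.6, 14.4 and 14.3 to 10.8, 11.8 and 10.8 CPM (−0.34 ± 0.058, adjusted p = 0.00257). These genes and Gpm6b, a proteolipid family membrane protein (9.55 to 9.72 against 7.20 to 8.11 CPM), were lower in all 3 pairs on plastic as well and were called there.

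Sox5, a transcription factor gene, had 6.57 to 7.10 CPM in EV and 4.65 to 5.74 CPM in the Wisp1 line (adjusted p with pairs = 0.00976). Fam169a had 11.4 to 12.9 against 9.49 to 9.79 CPM (adjusted p = 0.00435), and Sipa1l2, a Rap GTPase-activating protein gene, 13 to 13.5 against 9.68 to 11.1 CPM (0.0111). None of these 3 was called on plastic. Calls with pairs ended without pair 2 for Sox5 (adjusted p = 0.107), Fam169a (0.0558) and Sipa1l2 (0.153), and without pair 2 or pair 3 for Gpm6b (0.0761 and 0.0645).

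Chaperones of the endoplasmic reticulum were higher in the Wisp1 line on collagen. With pairs, 8 of 14 rose and 0 fell, where 1.63% of all genes rose. All 14 had log2 changes above 0 (50% of all genes did), 12 were higher in 3 of 3 pairs (18.4% of all genes were), and 8 had groups that did not overlap (5.22% of all genes were higher in that way). The median log2 change was 0.16, against −0.00005 over all genes, and the medians within pairs were 0.17, 0.17 and 0.13. Without pairs 0 of the 14 were called. This list and those below were written with earlier results of these data known, so their shares of calls are not independent of these data.

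The lumenal HSP90 Hsp90b1 (GRP94) had 877, 909 and 832 CPM in EV and 1035, 1091 and 975 CPM in the Wisp1 line. All Wisp1 libraries lay above all EV libraries, with a log2 change of 0.24 ± 0.024 with pairs (1.18-fold, adjusted p = 9.03e-06). Hspa5 (BiP), the main HSP70 of the compartment and the most abundant of these, had 1685, 1725 and 1620 CPM against 1832, 1922 and 1747 CPM (0.13 ± 0.024, adjusted p = 0.0061). Calr, a lectin chaperone that binds calcium, had 631, 729 and 644 against 707, 869 and 752 CPM, so its groups overlapped while each pair rose (0.21 ± 0.028, adjusted p = 0.000189).

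The largest change in the list was that of Sdf2l1, a partner of the BiP system, from 15.4, 15 and 14 to 20.9, 20.7 and 15.9 CPM (log2 change 0.37 ± 0.054, adjusted p = 0.000761). Manf, a small secreted protein that binds BiP, rose from 93.5 to 102 CPM to 103 to 118 CPM (0.21 ± 0.029, adjusted p = 0.000412), and the BiP cochaperone Dnajc3 from 96.4 to 102 CPM to 107 to 116 CPM (0.18 ± 0.028, adjusted p = 0.000861). Creld2 (adjusted p = 0.0123) and the cochaperone Dnajb11 (0.0452) were called too. The Hspa5 call ended without pair 2 (adjusted p = 0.0935), and the list kept 6, 5 and 8 calls without pairs 1, 2 and 3.

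Disulfide isomerases and oxidases gave 4 rises and 0 falls among 12 with pairs, beside 1.63% and 0.939% of all genes, and 0 calls without pairs. The median log2 change was 0.11, and 10 of the 12 genes had log2 changes above 0 (50% of all genes did). In 3 of 3 pairs 7 were higher and 1 was lower, beside 18.4% and 18.3% of all genes. Groups were separate and higher for 6, and separate and lower for 1, beside 5.22% and 4.27% of all genes. Pdia6 rose from 277, 279 and 267 to 337, 335 and 306 CPM (log2 change 0.25 ± 0.026, adjusted p = 2.12e-05). Pdia4 rose from 122, 116 and 109 to 145, 139 and 128 CPM (0.25 ± 0.026, adjusted p = 2.12e-05), and Pdia3, which works with Calr on glycoproteins, from 533 to 549 CPM to 594 to 623 CPM (0.16 ± 0.025, adjusted p = 0.000761). Pdia6, Pdia4 and Pdia3 each had separate groups. P4hb, the founding isomerase, had 591 to 606 against 616 to 668 CPM and was not called (adjusted p = 0.074). Txndc11, the remaining called member, had 37.6 to 40.9 against 43.6 to 45.1 CPM, and its call ended without pair 1 (adjusted p = 0.141) or pair 2 (0.159).

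The same genes were higher on plastic. There 9 of the 14 chaperones and 4 of the 12 disulfide genes rose with pairs, beside 2.08% of all genes, and 1 disulfide gene, Tmx1, fell, beside 1.08%. The list medians were 0.21 and 0.12. All 10 chaperone and disulfide genes named by rule (Hsp90b1, Calr, Manf, Sdf2l1, Dnajc3, Hspa5, Pdia6, Pdia4, Pdia3 and Txndc11) were called on both substrates, Calr at 0.34 on plastic and 0.21 on collagen. For 0 of the 26 genes did the change differ between substrates (adjusted p under 0.05 for the difference, with pairs). The plot of pair differences shows the called genes to the right of 0 in every pair on collagen, with differences under 0.5.

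**Figure D3:**
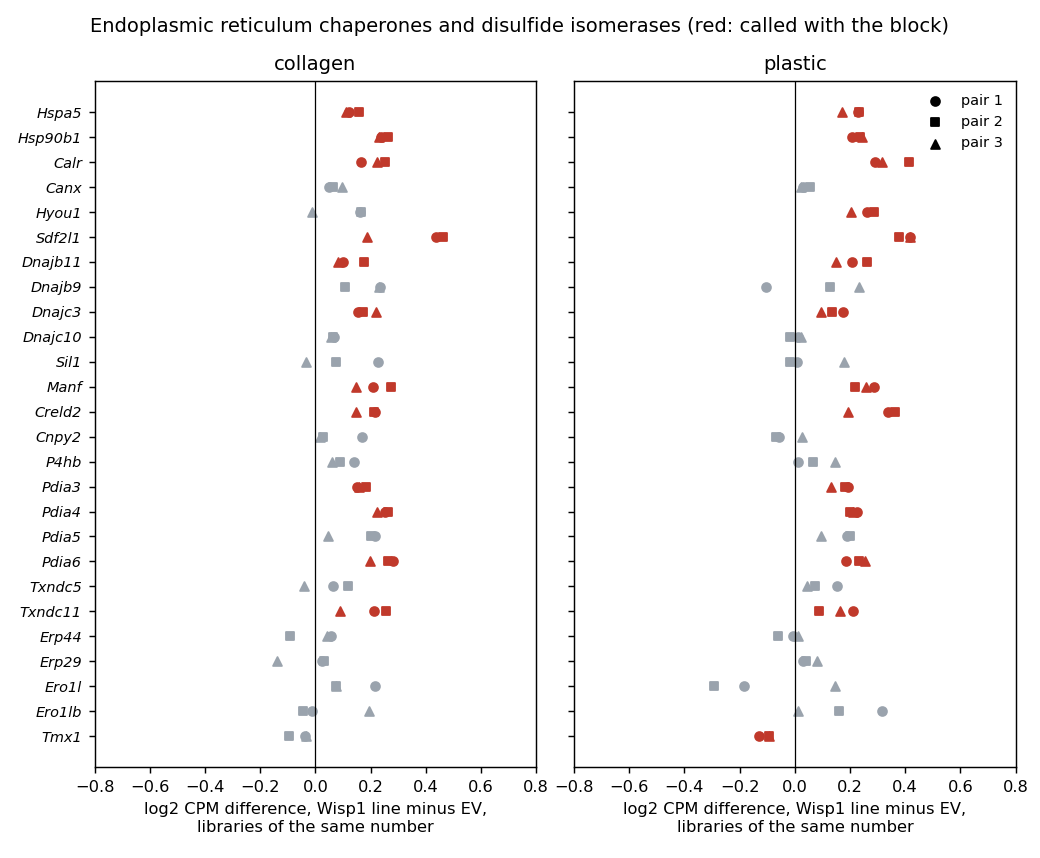
Log2 CPM difference between the Wisp1 line and EV libraries of the same number, on collagen (left) and plastic (right), for 14 chaperones (top, Hspa5 to Cnpy2) and 12 disulfide isomerases and oxidases of the endoplasmic reticulum (P4hb to Tmx1). Marker shape gives the pair, and red marks genes called in the fit with pairs; on collagen all red points lie above 0.

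The promoters of these genes are shown because several of the called members carry the endoplasmic reticulum stress element, to which the factors ATF6 and NF-Y bind. The motif searched was CCAAT, any 9 bases and CCACG, on both strands, in the window from 250 bases before to 50 bases after each RefSeq start (GRCm38.p6). It was found for 37 of 27025 genes with an entry, or 0.137%. Among the chaperones 11 of 14 had an entry and 6 held the motif; 5 of these 6 were called on collagen (Hspa5, Hsp90b1, Calr, Dnajc3 and Creld2), and Canx, a membrane lectin chaperone, was not (740 to 751 against 765 to 794 CPM, adjusted p = 0.134). Of the called members with an entry, Sdf2l1 and Dnajb11 did not hold these letters. Of the 11 disulfide genes with an entry, 2 held it, the called Pdia6 and the uncalled Ero1lb. The called Pdia3, Pdia4 and Txndc11 had an entry and did not hold it. Motif letters are in capitals, read 5′ to 3′ on the gene's strand, and a motif on the other strand begins with CGTGG and ends with ATTGG.
Hspa5, chr2:34772000-34772068, plus strand: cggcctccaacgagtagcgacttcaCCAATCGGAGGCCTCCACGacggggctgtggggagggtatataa
Hsp90b1, chr10:86705508-86705681, minus strand: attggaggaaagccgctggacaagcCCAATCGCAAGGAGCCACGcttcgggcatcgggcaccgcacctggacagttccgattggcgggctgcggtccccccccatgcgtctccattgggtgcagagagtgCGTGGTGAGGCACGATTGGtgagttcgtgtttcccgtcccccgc
Calr, chr8:84847050-84847118, minus strand: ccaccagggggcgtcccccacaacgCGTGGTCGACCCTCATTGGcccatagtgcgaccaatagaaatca
Dnajc3, chr14:118937802-118937870, plus strand: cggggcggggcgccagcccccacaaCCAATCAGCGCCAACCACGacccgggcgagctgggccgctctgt
Creld2, chr15:88819495-88819563, plus strand: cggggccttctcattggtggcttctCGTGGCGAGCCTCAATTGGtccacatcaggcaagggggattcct
Pdia6, chr12:17266466-17266534, plus strand: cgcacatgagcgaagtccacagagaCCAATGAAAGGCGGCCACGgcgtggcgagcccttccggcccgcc
Canx, chr11:50325775-50325843, minus strand: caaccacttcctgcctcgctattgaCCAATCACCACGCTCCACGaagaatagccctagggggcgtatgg

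The first base of the motif lay 65 bases before the start in Hspa5, 98 in Pdia6, 105 in Dnajc3, 126 in Creld2, 145 in Canx and 162 in Calr. Hsp90b1 held 2 copies, on opposite strands. A match of letters is a description and does not show that a factor was bound, and its relation to the changes was not tested.

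Other parts of the secretory pathway gave 0 to 2 calls per list with pairs. Over all genes 1.63% rose and 2.57% were called either way, so these counts of calls are close to the background. Higher in 3 of 3 pairs were 6 of 11 stress sensors, 6 of 10 degradation genes and 9 of 22 vesicle genes, with 0 lower in each. For the translocon list 7 of 19 were higher and 2 lower, and for N-glycosylation 4 of 14 and 0. Among all genes 18.4% were higher and 18.3% lower in this way. Groups were separate and higher for 5 of the 22 vesicle genes, beside 5.22% of all genes. Of 11 stress sensors and their factors, Xbp1, the factor spliced by IRE1, was the single call with pairs, at 73, 64.6 and 60.3 CPM in EV and 90.6, 78.3 and 75.2 CPM in the Wisp1 line (log2 change 0.30 ± 0.041, adjusted p = 0.000719). Of 10 genes for degradation of misfolded proteins, Edem1, which routes misfolded glycoproteins to disposal, was the single call (81.4 to 83.4 against 89.4 to 92 CPM, adjusted p = 0.0173). Both were chosen after their values were seen, and neither was called on plastic (adjusted p = 0.3 and 0.794). Of 22 vesicle coat and cargo receptor genes 2 were called, Copa and Sec24c, both higher and under 1.5-fold. No gene of the translocon and signal peptidase (19 tested, median log2 change 0.04) or of N-glycosylation (14, median 0.02) was called. Of 19 ATF4 targets 1 was called, Vldlr, and the list median was −0.02.

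Antigen presentation genes made up the other group with several calls. Of 16 genes that process peptides and load class I molecules, 8 rose and 0 fell with pairs on collagen, beside 1.63% of all genes, and 0 were called without pairs. All 16 had log2 changes above 0 (50% of all genes did), 14 were higher in 3 of 3 pairs (18.4%), and 4 were higher with groups that did not overlap (5.22%). The median log2 change was 0.15, and 0.21, 0.13 and 0.14 within the pairs. Psmb8, a catalytic subunit of the immunoproteasome, rose from 37.1, 37.4 and 31.9 to 51.1, 45 and 40.4 CPM (log2 change with pairs 0.36 ± 0.039, adjusted p = 2.56e-05). The proteasome activator genes followed, Psme1 from 76.4, 72 and 71.3 to 97.1, 86.3 and 82.5 CPM (0.27 ± 0.034, adjusted p = 0.000123) and Psme2 from 59.1 to 65.8 CPM to 70.2 to 76.6 CPM (0.21 ± 0.032, adjusted p = 0.000761).

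The class I light chain B2m had 407, 411 and 362 CPM in EV and 448, 459 and 409 CPM in the Wisp1 line. Its groups overlapped, and each pair rose by 0.14 to 0.17 (0.16 ± 0.025, adjusted p = 0.00116). The heavy chain H2-D1 was at 415 to 460 against 439 to 503 CPM (adjusted p = 0.0111) and H2-T23, a nonclassical heavy chain, at 17.7 to 23.4 against 21.9 to 32.7 CPM (0.0115), both with overlapping groups. H2-K1 (adjusted p = 0.0169) and Psmb9 (0.0264) were called too. Heavy chain counts are uncertain, since the genes are near copies of each other. The H2-D1 call ended without pair 1 (adjusted p = 0.204) or pair 2 (0.075) and the H2-T23 call without pair 1 (0.146) or pair 3 (0.0523), and the list kept 4, 5 and 8 calls without pairs 1, 2 and 3.

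Interferon-stimulated genes had a larger median and fewer calls. Of 26 tested, 25 had log2 changes above 0 (50% of all genes did) and 19 were higher in 3 of 3 pairs (18.4% of all genes). The median was 0.25. With pairs 3 rose, beside 1.63% of all genes, and without pairs 0 were called. Oas1a, a sensor of double-stranded RNA, had 2.87, 3.72 and 2.9 CPM in EV and 4.51, 4.46 and 4.03 CPM in the Wisp1 line (log2 change 0.46 ± 0.10, adjusted p = 0.0176). Cmpk2, a mitochondrial nucleotide kinase gene, had 51 counts over the 3 EV libraries and 108 over the Wisp1 libraries, a ratio of 2.5 (interval 1.77 to 3.55, adjusted p = 0.0242). Oasl2, an oligoadenylate synthetase-like gene, was the third (adjusted p = 0.0242), at 5.32 to 6.7 against 5.74 to 9.33 CPM with overlapping groups. The list had 0, 1 and 2 calls without pairs 1, 2 and 3. Oas1a ended without pair 1 (adjusted p = 0.249) or 3 (0.0751), Oasl2 without pair 1 (0.33) or 2 (0.175), and Cmpk2 without pairs 1, 2 or 3 (0.0733, 0.177 and 0.106).

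On plastic 0 of the 16 antigen presentation genes and 1 of the 26 interferon-stimulated genes, Parp14 (lower), were called with pairs, and the list medians were 0.02 and −0.02. The difference between substrates passed the test with pairs for 1 antigen presentation gene, Psme1 (adjusted p = 0.0121), beside 0.502% of all genes, and for 2 interferon-stimulated genes, Gbp2 and Parp14. For the other members a difference between substrates was not shown. The plot of antigen presentation genes has the called members above 0 in 3 of 3 pairs on collagen and scattered about 0 on plastic.

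**Figure D4:**
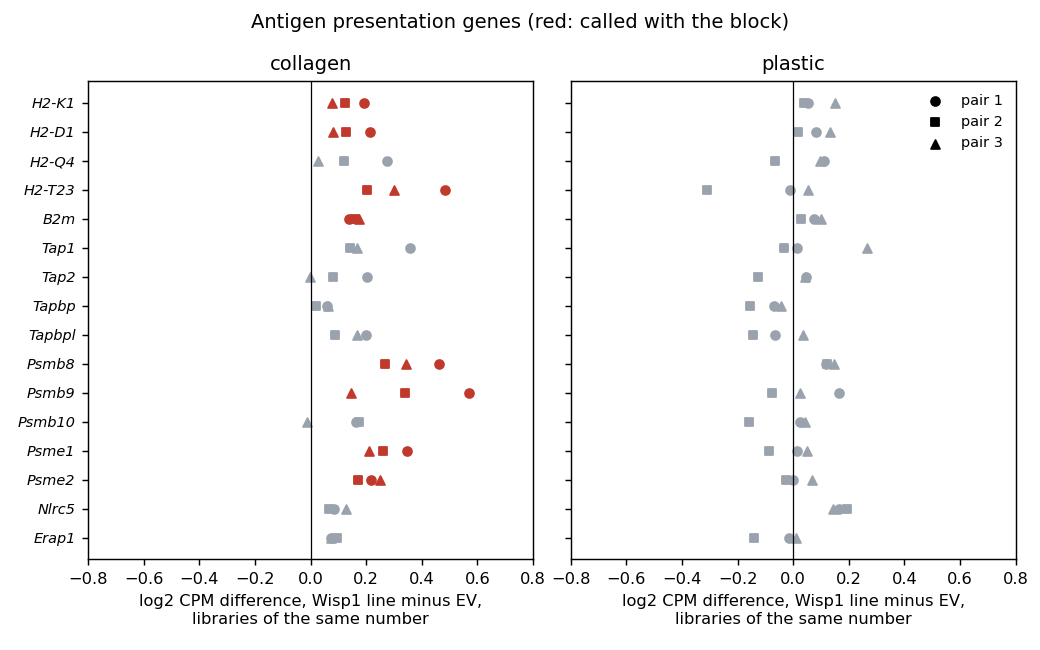
Log2 CPM difference between the Wisp1 line and EV libraries of the same number for 16 antigen presentation genes, on collagen (left) and plastic (right). Marker shape gives the pair and red marks genes called in the fit with pairs; 8 genes are red on collagen and 0 on plastic.

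The promoters of 2 called members are shown because they hold the core of the interferon-stimulated response element, GAAA, any 2 bases and GAAA, or TTTC and TTTC where it lies on the other strand, a motif chosen after the values were seen. It was present in 3.99% of all genes with an entry and in 4 of 13 antigen presentation genes with one. These were 3 of the 8 called (B2m, H2-T23 and Psme1) and 1 of the 5 not called. Of 21 interferon-stimulated genes with an entry 12 held it, 1 of the 3 called and 11 of the 18 not called. In B2m the core begins 139 bases before the start, and in H2-T23 124 bases before it.
B2m, chr2:122147523-122147582, plus strand: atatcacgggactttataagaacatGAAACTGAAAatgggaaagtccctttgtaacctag
H2-T23, chr17:36032791-36032850, minus strand: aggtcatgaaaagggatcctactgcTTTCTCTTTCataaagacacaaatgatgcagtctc

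Other members of the CCN family did not follow Wisp1 in the main fit. Ctgf, the family member most tied to fibrosis, had 42.2, 46.7 and 42.2 CPM in EV and 45.7, 52.1 and 32.9 CPM in the Wisp1 line (log2 change −0.003 ± 0.22, adjusted p = 0.999), and its sign differed from this in 5 of 23 alternative settings. Cyr61 had 81.1 to 106 against 75.5 to 107 CPM, and Nov 1.79 to 2.82 against 1.93 to 3.5 CPM; the groups of both overlapped and neither was called. Wisp2, which lacks the C-terminal module of the family, had 19, 19 and 23 counts in EV and 82, 24 and 18 in the Wisp1 line. Scaled for depth its groups were separate (0.245 to 0.343 against 0.359 to 1 CPM), with a log2 change with pairs of 1.02 ± 0.27 (adjusted p = 0.0479, or 0.596 without pairs). The Wisp2 call ended without pairs 1, 2 or 3 (adjusted p = 0.612, 0.11 and 0.0592), and library 1 of the Wisp1 line was the high one. Wisp3 had 0 counts in all 6 libraries.

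Among receptors for the coating, Itga2, the collagen-binding integrin alpha2 chain, was lower in the Wisp1 line. It had 155, 174 and 162 CPM in EV and 126, 152 and 153 CPM in the Wisp1 line, separate groups and lower in 3 of 3 pairs (log2 change with pairs −0.19 ± 0.032, adjusted p = 0.0035, or 0.996 without pairs). On plastic Itga2 was 104 to 134 against 107 to 137 CPM, and the difference between substrates passed the test with pairs (adjusted p = 0.039). Its partner Itgb1 had 1255, 1363 and 1283 against 1156, 1280 and 1211 CPM (−0.10 ± 0.025, adjusted p = 0.0449 with pairs), with overlapping groups. The Itga2 call ended without pair 1 (adjusted p = 0.0798), and the Itgb1 call without pair 1 (0.307), 2 (0.171) or 3 (0.0633).

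The discoidin domain receptors were not called, Ddr1 at 59.3 to 61.9 against 53.2 to 65.2 CPM and Ddr2 at 220 to 241 against 222 to 239 CPM. Of the integrin chains that bind WISP1, Itgav (285 to 314 against 288 to 292 CPM), Itgb5, Itgb3 and Itga5 were not called, and the proteoglycan ligands Dcn and Bgn were too low to test, at 0 to 8 counts per library. Itga1 (5.46 to 7.01 against 5.88 to 8.76 CPM), Itga10 and Mrc2 were not called either, and Itga11, Lair1 and Gp6 were too low to test. The SE of Ddr2 with pairs was 0.027 on the log2 scale, that of Ddr1 0.049 and that of Itgav 0.029. On simulated data that fit made more false calls than its nominal share, so these SE may be too small. Changes of the size seen in Itga2 are therefore not excluded for these genes.

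Genes of the matrix and of the cell phenotype gave 0 to 2 calls per list with pairs, where 2.57% of all genes were called, so single calls in lists of this size are near the background and say nothing of the list. Of 16 collagen chains tested, Col7a1, the anchoring fibril collagen, rose (log2 change with pairs 0.16, adjusted p = 0.0294) and Col3a1 fell. Col3a1 had 23, 17 and 8 counts in EV and 1, 0 and 2 in the Wisp1 line, a ratio of 13.6 (interval 4.38 to 68.2), and 31, 61 and 28 against 1, 5 and 0 on plastic; both genes were chosen after their values were seen. Loxl3 was the single call of 20 crosslinking and modifying enzymes, Plau of 23 proteases and inhibitors, and Vcl (higher) and Ptk2 (lower) the 2 of 16 focal adhesion genes, all under 1.5-fold. No call was made among 24 matrix glycoproteins and proteoglycans, 15 YAP and TAZ targets, 10 Wnt targets, 9 mesenchymal genes, 7 basal genes, 12 NF-kB feedback genes, 21 hypoxia and glycolysis genes or 28 DNA replication genes. Log2 changes were above 0 for 6 of the 7 basal and 18 of the 21 hypoxia and glycolysis genes (50% of all genes). They were above 0 for 4 of the 15 YAP and TAZ targets, 3 of the 12 NF-kB and 8 of the 28 DNA replication genes. In 3 of 3 pairs 3 basal genes were higher and 0 lower, and 1 hypoxia and glycolysis gene each way. Single calls came from 21 epithelial genes (Esrp1, an epithelial splicing regulator, lower, log2 change −0.26, adjusted p = 0.000778), 16 TGF-beta and SMAD targets (Ltbp2, lower), 16 chemokines and cytokines (Cx3cl1, higher), 23 cholesterol synthesis genes (Ebp, higher) and 22 mitosis genes (Mki67, lower).

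Over the 358 genes called on collagen with pairs, the change on plastic was mostly in the same direction and smaller. Of the 227 higher genes 170 were higher on plastic, and of the 131 lower genes 95 were lower there. Together 74% kept the sign, against 53.3% of all genes tested, in libraries that the 2 comparisons do not share. The median log2 change of the higher genes was 0.23 on collagen and 0.06 on plastic, and that of the lower genes −0.14 and −0.04. The collagen values chose these genes, so their larger size on collagen is not a result. Of the 358, 50 were called on plastic too (14% of the collagen calls and 11.4% of the 440 plastic calls), 47 of them in the same direction.

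**Figure D5:**
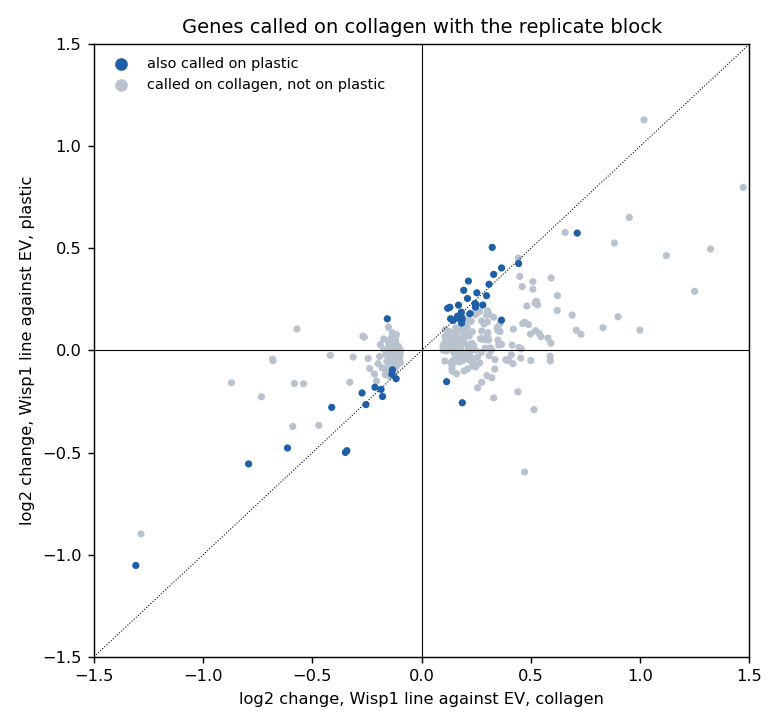
Log2 change between the Wisp1 line and EV with pairs, on collagen (x) and plastic (y), for 348 of the 358 genes called on collagen; 10 genes beyond 1.5 on either axis are not drawn. Blue marks genes also called on plastic, most of them near the dotted line of equal change, and grey marks the others, most of them between that line and 0.

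A difference between the substrates was called for 0 genes without pairs (0% of those tested, 410 with an unadjusted p under 0.05) and for 70 genes with pairs (0.502%), 26 of them among the 358. The collagen change that chose the 358 genes is part of this difference, so the 26 are not independent of that choice. Of the 10 genes called on collagen without pairs, Ly9 (adjusted p = 0.0292) and Xk (0.0334) were among the 70, while Wisp1 (0.0783), Gpr116 (0.0563) and Epb4.1l4a (0.0801) were not.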

How the data were processed

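Poly(A)-enriched RNA was sequenced with a stranded mRNA kit, per the labels' protocols. The values are raw counts per gene symbol as deposited, with no normalization by the authors. Tools named in the submitters' processing notes are STAR, BWA, HTSeq, CASAVA, limma and R 3.2.4, and the build is mm9. Not given in the sources used here are the annotation, the strand setting and the handling of reads with several alignments. Overlapping and antisense genes and near copies are therefore uncertain. Summary entries (13.87 to 15.31% of a library's total on collagen) were left out of 34591 symbols.

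The 12 stable line libraries were fitted together in edgeR 4.0.16 (R 4.3.3) with 4 group means, TMM factors, the filterByExpr filter and robust quasi-likelihood tests (8 residual degrees of freedom); 13953 genes were tested. SE was taken as the log2 change divided by the root of its F statistic. CPM used the TMM factors of these 12 libraries. Intervals of count ratios are exact, at 95%, and cover counting error only. Pair differences used a prior count of 2.

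Both lines carry replicate numbers 1 to 3, with no statement of what a number marks. Deviations from the group means of same-numbered EV and Wisp1 libraries correlated at 0.47, 0.15 and 0.34 on collagen and 0.12, 0.21 and 0.22 on plastic. All were above the minimum of 0.1, so a second fit added the replicate number within each substrate as a block (4 residual degrees of freedom). On collagen EV 3 with Wisp1 2, of different number, was above it too (0.13). The minimum therefore does not single out same-numbered libraries.

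Named genes were Wisp1, all calls without the block, the 8 largest rises and falls with the block (mean of at least 5 CPM, groups separate), up to 6 called members of each of 34 lists with at least 3 calls, and a panel of CCN genes, WISP1 partners and collagen receptors. The gene lists, their members and the block were chosen with earlier results of these data known. RefSeq promoters (GRCm38.p6) were matched by symbol or synonym; Wisp1 had no entry and is not shown. Alternatives were other scalings, filters, DESeq2 1.42.0, limma-voom (limma 3.58.1), other sets of libraries, thinning to the smallest library and leaving out each library or pair.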

Additional observations from a re-analysis of the deposited data

Results flagged for a closer look

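For 6 of the 61 named genes, some of them too low to test, the effect of the Wisp1 line differed between collagen and plastic. The difference itself was tested with the replicate block (edgeR, adjusted over all genes), which called it for 70 genes, or 0.502% of those tested. Of the 6, all but Itga2 were named for their change on collagen, which is part of the difference tested. Anxa8 changed by 0.50 (log2) on collagen and −0.05 on plastic (adjusted p = 0.000855 for the difference), higher in 3 of 3 pairs on collagen and in 0 of 3 on plastic. Psme1 changed by 0.27 and −0.01 (0.0121), higher in 3 and 2 pairs. Vldlr changed by 0.51 and −0.29 (0.0179), higher in 3 pairs and in 1. Ly9 changed by 0.62 and 0.20 (0.0292), higher in 3 pairs on both substrates, so here the size differs and not the direction. Xk changed by 0.58 and 0.06 (0.0334), higher in 3 and 2 pairs. Itga2, the integrin alpha2 chain that binds the coating, changed by −0.19 and 0.03 (0.039), lower in 3 of 3 pairs on collagen and higher in 3 of 3 on plastic. Without the block none of the 6 passed (adjusted p = 0.973 for each), and 0 genes of the whole table did.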

How the results depend on the processing

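The count of 10 genes called on collagen was within 1.5 times under other scalings (10 and 12), limma-voom (12) and thinned libraries (7). It was 32 with no filter on low counts, 6 with a minimum of 1 CPM, 40 by DESeq2, 4 with all 18 libraries, 2 when the 6 collagen libraries were fitted alone, and 5 (without EV replicate 3) to 11 (without EV replicate 1) with a library left out; Wisp1 replicate 2 gave 6. Pairing by replicate number moved it most: 18 with the replicate block over all 4 groups, 358 within each substrate, 400 with only the collagen libraries, 167 by DESeq2 and 446 by limma-voom with that block. Without pair 1, 2 or 3 the block gave 82, 135 and 255. Of the 10 genes, 2 were called on plastic; this was 1 with a minimum of 1 CPM, with all 18 libraries, with thinned libraries and by DESeq2 with the block, 1 to 2 with a library left out, and 5 with the block by edgeR or limma-voom (5, 4 and 5 without pairs 1, 2 and 3). A difference between substrates was called for 0 of the 10, for 1 by DESeq2, 2 with the block, 1 with the block by DESeq2 or limma-voom, and 1 without pair 2 or pair 3. With the block, chaperones had 8 calls by edgeR, 6 by DESeq2 and 8 by limma-voom, disulfide genes 4, 3 and 4, antigen presentation genes 8, 7 and 9 and interferon-stimulated genes 3, 0 and 5; over all 4 groups each list had 0. No named gene reversed a call. The cause of these changes was not tested. At under 1 CPM, as for Cadm2, Spna1, BC068157, Chrdl1 and Wisp2, depth limits the size that can be stated.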
